A study of Mus musculus with 6 samples.

Results

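The genes described here encode the ephrins and their Eph receptors, the semaphorins with their plexin and neuropilin receptors, the Slits and Robos, and the netrins with their receptors Dcc and Unc5. They were chosen by symbol: all genes of these families, among the netrins only Ntn1 and Ntn4, for which the platform annotation of a probe set gave that symbol alone. This gave 66 of 18194 genes, read by 149 of 34958 probe sets, and each gene was represented by its brightest probe set. Expression was measured in mandibular arches of C57BL/6 mouse embryos at E10.5 on 6 Affymetrix arrays. Of these, 3 were labelled Tbx1-/- and 3 were labelled Tbx1+/+, and the labels gave both groups the same strain, stage and tissue. The labels speak of pooled arches from 3 embryos of each genotype without saying whether every array had a pool of its own. Xist, the transcript of X inactivation, read 11.55, 5.60 and 10.60 on the Tbx1-/- arrays, against 10.44 to 11.53 on the Tbx1+/+ arrays, so the Tbx1-/- arrays did not all carry 1 shared pool. For the Tbx1+/+ arrays this is not settled, and the p-values cover only the spread among these samples. The Y-linked gene Eif2s3y read 10.15, 10.94 and 10.41 on the Tbx1-/- arrays, against 10.03 to 10.63 on the Tbx1+/+ arrays. Tbx1-/- replicate 2, the lowest in Xist, was the highest in Eif2s3y, so the mix of sexes differed between arrays. Its part in the values of X-linked genes such as Efnb1 and Plxna3 was not tested. Tbx1 is a T-box transcription factor of the pharyngeal arches, and the comparison asks which transcripts differ in the first arch when it is lost. Which part of Tbx1 the allele disrupts is not stated in the labels.

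These families are short-range and long-range cues that steer axons, migrating neural crest cells and vessel sprouts. Ephrins stay on the cell membrane, by a lipid anchor in the A class and a membrane span in the B class, and signal at cell contacts through the Eph receptor tyrosine kinases. Class 3 semaphorins are secreted and act through neuropilins and A-type plexins, other semaphorins bind plexins directly, Slits repel cells that carry Robo receptors, and netrin attracts through Dcc and repels through Unc5. In the arches such cues are known to pattern the trigeminal axons, the crest streams and the arch vessels, and loss of EFNB1 in humans causes a craniofacial syndrome.

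No guidance gene differed between the genotypes past the threshold, an adjusted p of 0.05. The promoters of 3 genes that the values below turn on are shown first, from RefSeq on GRCm38.p6, each window lying mostly upstream of the start of the gene, on its own strand. They are Sema3g, chr14:31217623-31217922 on the plus strand, which had the smallest p, Efna1, chr3:89280902-89281201 on the minus strand, whose groups did not overlap, and Sema3e, chr5:14025026-14025325 on the plus strand, which stood far above the rest on 1 array. Capitals mark the T-box letters GGTGTGA or TCACACC and the low-oxygen response letters ACGTG or CACGT.
Sema3g: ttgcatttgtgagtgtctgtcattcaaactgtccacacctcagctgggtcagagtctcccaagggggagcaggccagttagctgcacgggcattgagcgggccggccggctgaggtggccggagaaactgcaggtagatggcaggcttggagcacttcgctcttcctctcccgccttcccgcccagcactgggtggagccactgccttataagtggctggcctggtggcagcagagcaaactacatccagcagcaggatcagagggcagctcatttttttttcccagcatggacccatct
Efna1: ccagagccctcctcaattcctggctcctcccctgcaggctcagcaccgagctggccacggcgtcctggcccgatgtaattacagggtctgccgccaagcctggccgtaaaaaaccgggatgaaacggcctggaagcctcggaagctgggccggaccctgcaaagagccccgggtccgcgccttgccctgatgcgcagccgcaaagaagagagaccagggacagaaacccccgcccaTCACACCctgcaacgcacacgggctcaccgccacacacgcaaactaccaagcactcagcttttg
Sema3e: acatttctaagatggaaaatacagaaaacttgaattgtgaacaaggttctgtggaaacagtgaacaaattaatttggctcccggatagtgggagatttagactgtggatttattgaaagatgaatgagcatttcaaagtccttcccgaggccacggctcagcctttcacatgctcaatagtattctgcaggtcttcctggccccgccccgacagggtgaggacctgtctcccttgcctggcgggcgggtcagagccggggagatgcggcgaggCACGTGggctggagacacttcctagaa
The T-box letters stood in the Efna1 window and the low-oxygen letters, in both overlapping orientations, in that of Sema3e; neither stood in the Sema3g window, nor in the other window of Efna1. Promoter windows were at hand for 56 of the 66 genes, some with several. On either strand the T-box letters were in 4 of their 72 windows (5.56%), against 3.98% of all 32851 windows, and the low-oxygen letters in 13 (18.1%), against 19.6%. Besides Efna1, the T-box windows belonged to Nrp2, Sema4a and Sema6c. Of the 2 Efna1 windows, only the one with the T-box letters is shown. Plxnd1, whose groups also did not overlap, and Sema7a, also high on 1 array, had 1 window each. Neither window held either set of letters, and neither is shown. These matches describe letters in a window and show no binding.

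Values are log2 expression, on which 1 unit is a doubling, and a difference is the labelled-null mean minus the wild-type mean. Tbx1 itself read 7.59, 7.50 and 7.30 on the arrays labelled Tbx1-/-, against 6.93, 7.31 and 6.92 on the arrays labelled Tbx1+/+. It was thus not lower on the arrays labelled Tbx1-/-, which are called labelled-null here, and every direction follows the labels. Without the position of the disruption, this probe set does not check them. Genes of the arch mesenchyme, which mark the labelled tissue, were all above the filter (12 of 12), with a mean level of 10.22 to 10.31 on labelled-null and 10.20 to 10.29 on wild-type arrays. The muscle core list had a mean level of 5.31 to 5.54 against 6.43 to 6.61 (7 genes). Of these, 6 had lower means, 2 of them past the threshold in limma, and the remaining gene, Tbx1 itself, was higher by 0.41. The hypoxia list had a mean level of 10.36 to 10.90 against 9.66 to 9.80 (21 genes). In limma 1 of its genes passed the threshold and 17 stood at an unadjusted p under 0.05. With the replicate number as a block these were 3 and 18. Over all genes the shares were 0.0373% and 2.68%, or 0.0622% and 4.24% with the block. Labelled-null replicate 3 stood apart: its placenta markers averaged 9.52, against 6.58 and 6.85 on the other labelled-null arrays and 6.30 to 6.65 on wild-type arrays (10 genes), and 249 genes exceeded the average of the remaining arrays by more than 1 there, against 6 to 32 on any other array. The remaining lists were endothelium (7.90 to 8.05 against 7.77 to 7.82, 14 genes), neurons (6.23 to 6.34 against 6.14 to 6.21, 15 genes), crest glia (7.28 to 7.35 against 7.23 to 7.44, 4 genes), blood (8.70 to 9.23 against 8.76 to 8.95, 11 genes) and epithelium (9.11 to 9.29 against 8.89 to 9.19, 13 genes). In the marker lists Prl8a9 and Ctsj of placenta were above 4 on too few arrays to be tested but reached 10.85 and 10.78, and Neurog2, Foxd3, Tpbpa, Psg17 and Ctsq did not exceed 5.01. In tissue RNA, fewer cells of a type and less transcript per cell cannot be told apart.

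Of the 66 guidance genes, 64 exceeded 4 on at least 3 arrays and were tested. Epha6, an Eph receptor known from neurons, and Plxnb3, a B-type plexin, did not, with 3.27 to 3.56 and 3.48 to 3.74 on labelled-null arrays against 3.27 to 3.44 and 3.39 to 3.49 on wild-type arrays. Ephb2 was not analysed here. None of the 64 passed an adjusted p of 0.05 in limma with Benjamini-Hochberg adjustment over all genes, where 6 of 16074 genes (0.0373%) did. At an unadjusted p under 0.05 stood 1 of the 64 (1.56%), against 2.68% of all genes, and it was higher, as were 1.47% of all genes, with 0 lower, against 1.2%. With the replicate number as a block it was 2 of 64 (3.12%), against 4.24%, Efna1 joining Sema3g, and 0 passed the adjusted threshold, against 0.0622%. On 3 genes, Sema3g, Efna1 and Plxnd1, all labelled-null arrays lay above all wild-type arrays, and on 0 below. These 3 of 64 are 4.69%, against 6.43% of all genes with groups that did not overlap, 3.17% higher and 3.25% lower. With 3 arrays against 3 an exact permutation test cannot go below a p of 0.1.

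The differences were small in both directions. The labelled-null mean was higher for 35 and lower for 29 of the 64 genes, against 47.3% higher over all genes, and the median difference was 0.02, against -0.01 over all genes. The difference was under 0.1 in size for 41 genes (64.1%), against 66.8% of all genes, and at least 0.3 for 3 genes (4.69%), against 5.56%. Those 3 were the semaphorins Sema3e, Sema7a and Sema3g. The 95% interval from limma, which is not adjusted for the number of genes, lay within 0.5 of 0 for 54 of the 64 (84.4%), against 81.3% of all genes. It lay within 1 of 0, which is a change of less than a doubling either way, for 62 (96.9%), against 97.5%, the exceptions being Sema3e and Sema7a. The median within-genotype SD was 0.16 for the guidance genes and 0.14 for all genes tested.

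**Figure D1:**
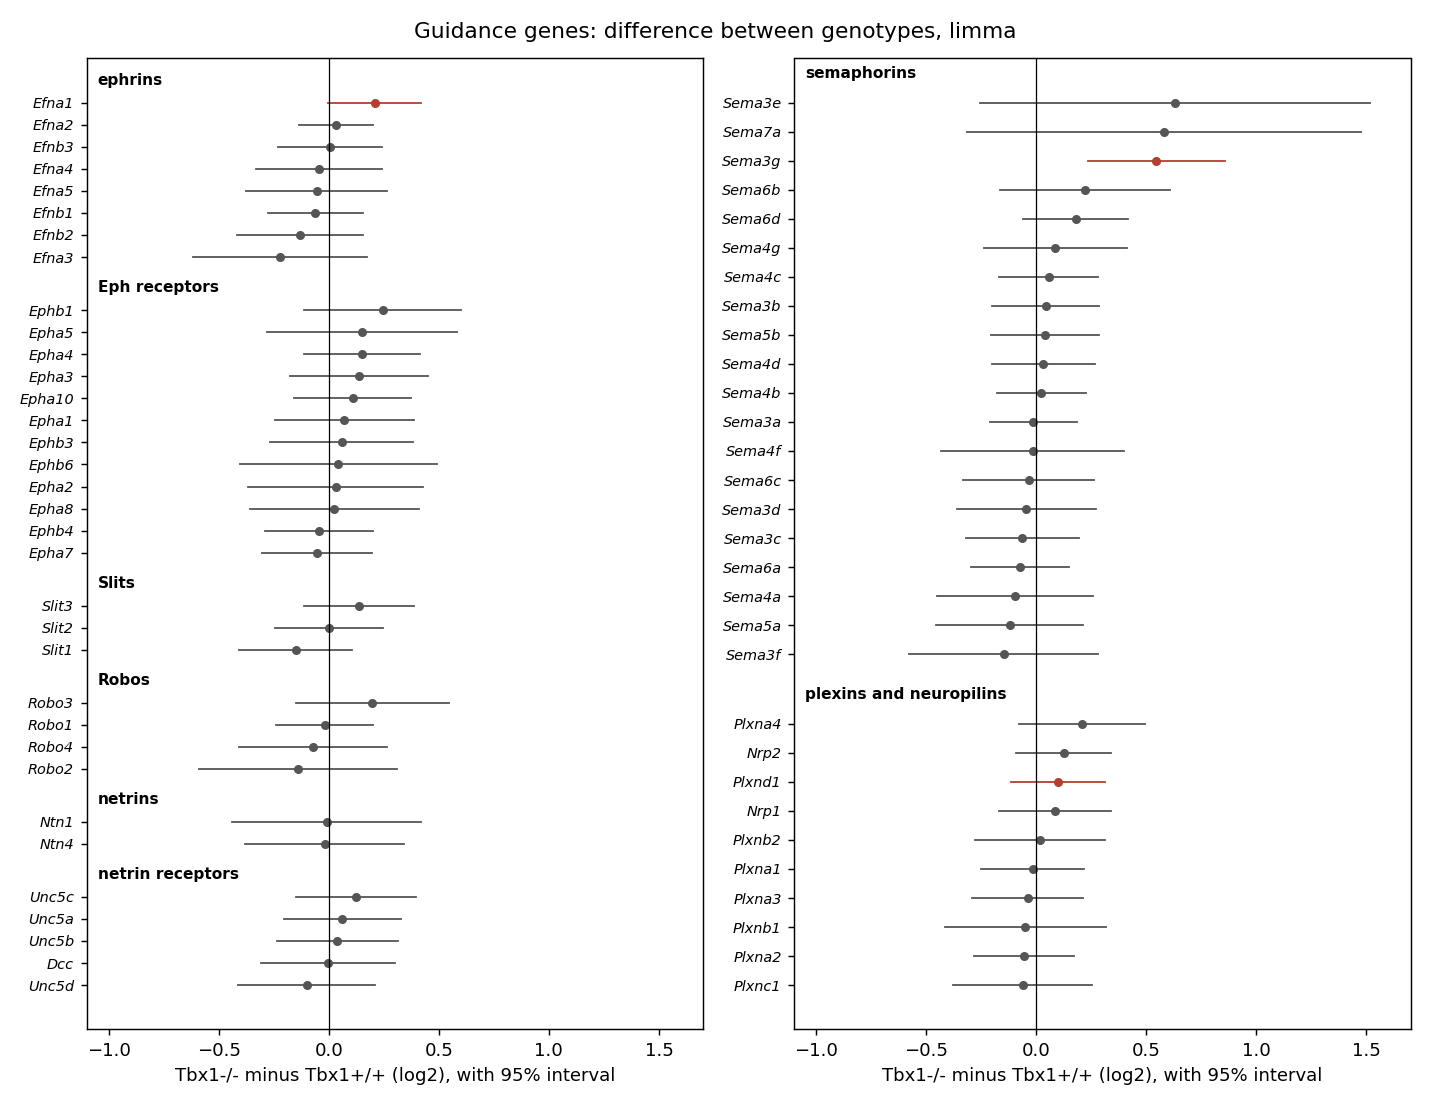
Difference between labelled-null and wild-type arrays (log2, horizontal axis) for the 64 guidance genes tested, by family, with the 95% interval from limma as a line (n = 3 arrays per genotype). Red marks the 3 genes whose groups did not overlap, and the widest intervals are those of Sema3e and Sema7a.

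**Figure D2:**
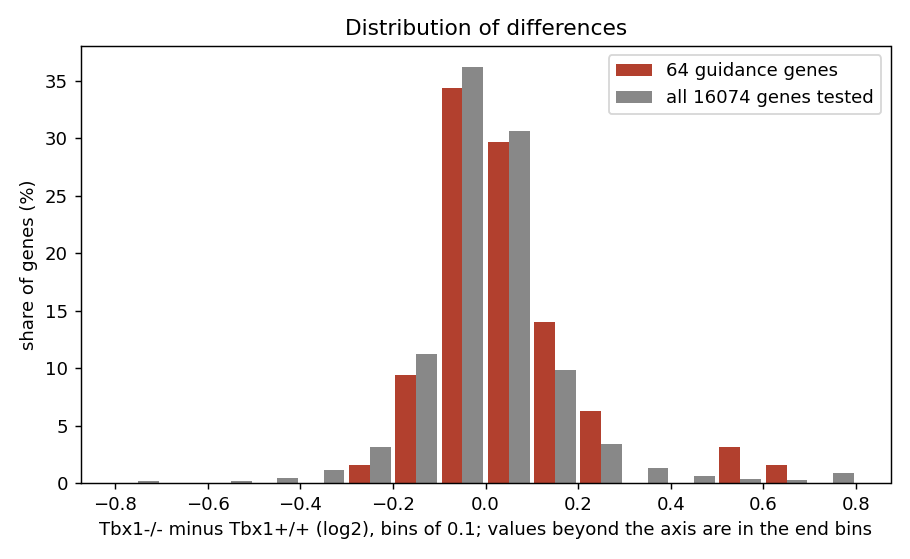
Share of genes (percent, vertical axis) by difference between labelled-null and wild-type arrays (log2, bins of 0.1) for the 64 guidance genes and for all 16074 genes tested, with values beyond the axis in the end bins. Both peak around 0, and 41 of the 64 guidance genes lie within 0.1 of it.

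Among the ligands, the ephrins gave 3 higher and 5 lower means of 8, where 47.3% of all genes were higher, with a median difference of -0.05. Efna1, a ligand of EphA receptors found on vessels and epithelia, read 9.10, 9.06 and 9.00 on labelled-null arrays, against 8.85, 8.94 and 8.75 on wild-type arrays. Every labelled-null array was above every wild-type array, by a narrow margin. The difference was 0.21 (SE 0.09, 95% interval -0.00 to 0.42), with an unadjusted p of 0.0531 and an adjusted p of 1.00 in limma, and 0.0436 and 1.00 with the replicate block; the exact permutation p was 0.1, the smallest that 3 arrays against 3 allow. Its second probe set overlapped, at 7.96, 7.73 and 7.61 on labelled-null and 7.95, 7.65 and 7.44 on wild-type arrays, and differed by 0.09. Efna3, another EphA ligand, read 6.63, 6.67 and 6.82 on labelled-null arrays, against 6.61, 7.28 and 6.89 on wild-type arrays. Here the wild-type spread covered the labelled-null values, and the difference of -0.22 (SE 0.17) had an unadjusted p of 0.232 in limma; it was -0.38 without wild-type replicate 1 and -0.04 without wild-type replicate 2. In human cells both genes are induced by low oxygen, and the hypoxia list was higher on the labelled-null arrays; its part in these values was not tested.

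The B-class ephrins, which also signal backwards into the cell that carries them, had overlapping groups. Efnb1, the gene of the human craniofacial syndrome, averaged 8.93 ± 0.07 on labelled-null and 8.99 ± 0.10 on wild-type arrays (SD, n = 3 each), with an interval for the difference of -0.28 to 0.15, and its 3 probe sets differed by -0.06 to -0.04. Efnb2, which marks arteries and crest-derived mesenchyme, read 11.59, 11.56 and 11.29 against 11.87, 11.48 and 11.48. Its highest value was on wild-type replicate 1 and the groups overlapped. The difference was -0.13 (SE 0.13, interval -0.42 to 0.16), and over its 4 probe sets the differences ran from -0.29 to 0.12. Efnb3 differed by 0.00 (SE 0.10), Efna2 by 0.03 (SE 0.07), Efna4 by -0.05 (SE 0.13) and Efna5, a cue of topographic axon maps, by -0.06 (SE 0.14).

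The Eph receptors gave 10 higher and 2 lower means of 12 tested, where 47.3% of all genes were higher, with a median of 0.06. At an unadjusted p under 0.05 in limma stood 0, against 2.68% of all genes. The mean level of the family was 7.42 to 7.53 on labelled-null and 7.31 to 7.44 on wild-type arrays, which overlap. Ephb1, a receptor of B-class ephrins, had the smallest p of the family, with 6.47, 6.44 and 6.60 on labelled-null arrays, against 6.37, 6.47 and 5.94 on wild-type arrays. Only wild-type replicate 3 lay clearly below the rest, and the difference of 0.24 (SE 0.16) had an unadjusted p of 0.152 in limma. Epha4, which binds both ephrin classes and separates crest streams in frog embryos, read 11.87, 11.66 and 11.50, against 11.68, 11.35 and 11.55, and the groups overlapped (difference 0.15, SE 0.12, unadjusted p = 0.228 in limma). Over its 5 probe sets the difference ran from -0.10 to 0.15. Epha3 (0.14, SE 0.14) and Epha7 (-0.05, SE 0.11), both receptors of A-class ephrins, and Ephb3 (0.06, SE 0.14), a receptor with a role in palate formation, also overlapped. Ephb4, the venous receptor of Efnb2, averaged 9.05 ± 0.14 on labelled-null and 9.09 ± 0.10 on wild-type arrays (SD, n = 3 each), a difference of -0.04 with an interval of -0.29 to 0.20. Epha1, Epha2, Epha5, Epha8, Epha10 and the kinase-dead Ephb6 differed by 0.03 to 0.15, the smallest unadjusted p being 0.380 in limma. Epha8 and Epha10 averaged 4.36 and 4.89 on labelled-null and 4.34 and 4.79 on wild-type arrays, close to the filter.

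The semaphorins held the 3 guidance genes with the largest differences. They gave 11 higher and 9 lower means of 20, where 47.3% of all genes were higher, with a median of 0.03. Sema3g, a secreted class 3 semaphorin of arterial endothelium that acts through Nrp2, read 7.18, 6.98 and 6.77 on labelled-null arrays, against 6.39, 6.56 and 6.34 on wild-type arrays. The lowest labelled-null array was above the highest wild-type array by less than the range within either genotype. Its difference was 0.54 (SE 0.14, interval 0.23 to 0.86), 1.46-fold on the linear scale. The unadjusted p was 0.00358 in limma and the adjusted p 0.959; with the replicate block they were 0.00352 and 0.628, and the exact permutation p was 0.1. The adjusted p ran from 0.30 without labelled-null replicate 3 to 1.00 over the alternative settings, while the difference stayed between 0.44 and 0.65. Only 1 probe set reads this gene, so no second probe set bears on it. The endothelial list was also higher on the labelled-null arrays, with a median of 0.16. It had 10 higher and 4 lower means of 14, where 47.3% of all genes were higher. At an unadjusted p under 0.05 in limma stood 2 (14.3%, against 2.68% of all genes), and 0 passed the adjusted threshold. The 2 were Sox17 (0.64) and the VEGF receptor Flt1 (0.71), while Pecam1 differed by 0.11 and Cldn5, Tek, Eng and Emcn by -0.08 to -0.01. With the replicate block 3 stood at an unadjusted p under 0.05 (21.4%, against 4.24% of all genes), Esam joining Sox17 and Flt1. Esam read 7.91, 7.84 and 8.63 on labelled-null arrays, against 7.93, 7.49 and 7.49 on wild-type arrays, so only labelled-null replicate 3 was clearly high. The part of endothelial RNA in the Sema3g value was not tested.

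Sema3e and Sema7a differed by more than Sema3g on average, but on a single array. Sema3e, a repellent of endothelial sprouts that binds Plxnd1 directly, read 7.21, 7.17 and 8.77 on labelled-null arrays, against 7.23, 6.86 and 7.18 on wild-type arrays. Labelled-null replicate 3 alone was high, and the other labelled-null arrays lay within the wild-type range. The difference of 0.63 (SE 0.39, interval -0.26 to 1.52, unadjusted p = 0.142 and adjusted p = 1.00 in limma) was 0.10 without that array. The same array was highest on all 4 probe sets of the gene. On the dimmest the labelled-null arrays read 4.64, 4.53 and 5.34, against 3.93, 3.97 and 3.99 on wild-type arrays; here the groups did not overlap, at values near the filter, and the difference of 0.88 had an unadjusted p of 0.00228 and an adjusted p of 1.00 over all probe sets in limma. Sema7a, a lipid-anchored semaphorin that binds Plxnc1 and integrins, read 6.48, 6.67 and 8.13, against 6.35, 6.82 and 6.36. Again labelled-null replicate 3 was high and the rest overlapped, and the difference of 0.58 (SE 0.39, unadjusted p = 0.174 in limma) was 0.06 without it. Its second, dimmer probe set was not high on that array, at 4.92, 4.81 and 4.92 against 4.71, 4.93 and 4.82. No other guidance gene exceeded the average of the remaining arrays by more than 1 on any array, as Sema3e and Sema7a did by 1.64 and 1.60 on this one. Labelled-null replicate 3 is the array with the high placenta markers, and their part in the Sema3e and Sema7a values was not tested. Both genes are described in this detail because of their values.

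**Figure D3:**
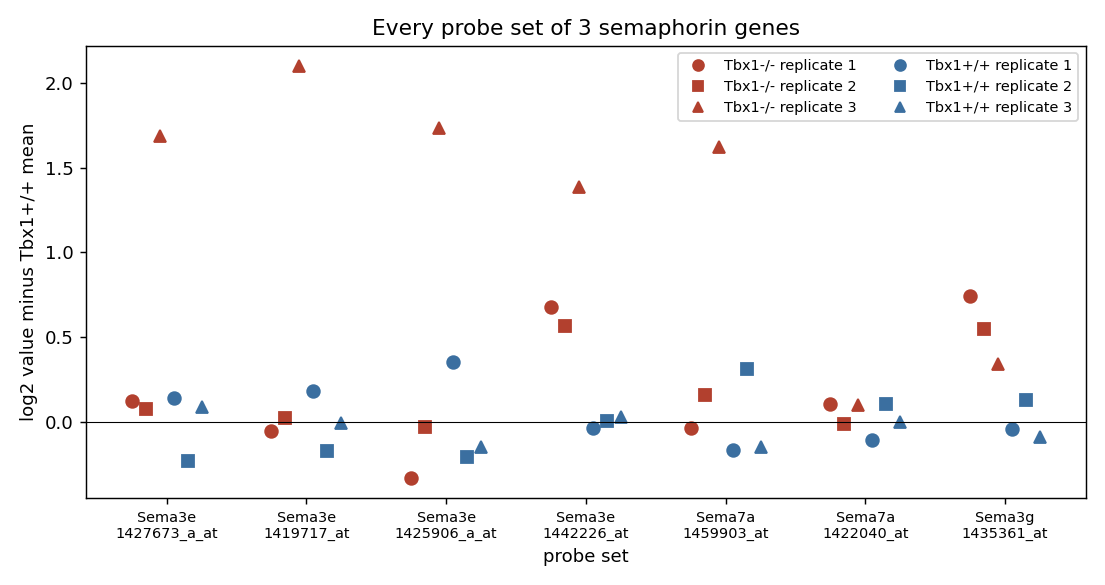
Value on each array minus the wild-type mean (log2, vertical axis) for every probe set of Sema3e, Sema7a and Sema3g, with colour for the genotype and shape for the replicate. Labelled-null replicate 3 is high on the 4 probe sets of Sema3e and on the brighter of the 2 of Sema7a, whereas on Sema3g it is the lowest of the labelled-null arrays.

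The remaining semaphorins differed by -0.15 to 0.22. Sema6d, a membrane semaphorin that binds Plxna1, read 9.23, 8.92 and 9.16 on labelled-null arrays, against 8.97, 8.91 and 8.90 on wild-type arrays. Labelled-null replicate 2 fell inside the wild-type range, and the difference of 0.18 (SE 0.10) had an unadjusted p of 0.122 in limma. Class 3 ligands known from trigeminal and cardiac development differed by less than their spread. Sema3a, the classic axon repellent acting through Nrp1, averaged 10.27 ± 0.10 on labelled-null and 10.28 ± 0.08 on wild-type arrays (SD, n = 3 each), with an interval for the difference of -0.21 to 0.18. Sema3c, a cue of the cardiac outflow tract, averaged 9.11 ± 0.12 on labelled-null and 9.18 ± 0.16 on wild-type arrays, with an interval of -0.32 to 0.19. Sema3f, which acts through Nrp2, differed by -0.15 (SE 0.19), Sema3d by -0.05 (SE 0.14) and Sema3b by 0.04 (SE 0.11). Class 4 members, which bind B-type plexins among others, ran from -0.10 for Sema4a to 0.09 for Sema4g, with Sema4d, the ligand of Plxnb1, at 0.03 (SE 0.10). Sema5a and Sema5b differed by -0.12 and 0.04, and Sema6a, Sema6b and Sema6c by -0.07, 0.22 and -0.04.

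Among the semaphorin receptors, 5 means were higher and 5 lower of 10 tested, where 47.3% of all genes were higher, and the median was 0.00. All 10 intervals lay within 0.5 of 0, as did 81.3% of those of all genes. Plxnd1, the endothelial receptor of Sema3e, read 7.73, 7.72 and 7.71 on labelled-null arrays, against 7.65, 7.64 and 7.59 on wild-type arrays. Both groups were tight, and the difference was 0.10 (SE 0.09), with an unadjusted p of 0.329 in limma and an exact permutation p of 0.1. Plxna4, a receptor on sensory axons, read 5.66, 5.69 and 5.43, against 5.43, 5.46 and 5.26, with a difference of 0.21 (SE 0.12, unadjusted p = 0.135 in limma). Labelled-null replicate 3 fell among the wild-type arrays. On the dimmer Plxna4 probe set the labelled-null arrays were all higher, by a narrow margin, at 5.41, 4.83 and 4.83 against 4.32, 4.81 and 4.62. Labelled-null replicate 1 lay apart from the other arrays. The difference of 0.44 had an unadjusted p of 0.0529 and an adjusted p of 0.9999 over all probe sets in limma. Nrp2, the co-receptor of Sema3f and Sema3g, read 10.35, 10.21 and 10.09, against 10.02, 10.19 and 10.08, and overlapped (0.12, SE 0.09, unadjusted p = 0.227 in limma). Nrp1, the co-receptor of Sema3a and of VEGF, averaged 10.12 ± 0.20 on labelled-null and 10.03 ± 0.06 on wild-type arrays, with an interval of -0.17 to 0.34. Plxna1, Plxna2, Plxna3, Plxnb1, Plxnb2 and Plxnc1 differed by -0.06 to 0.02.

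**Figure D4:**
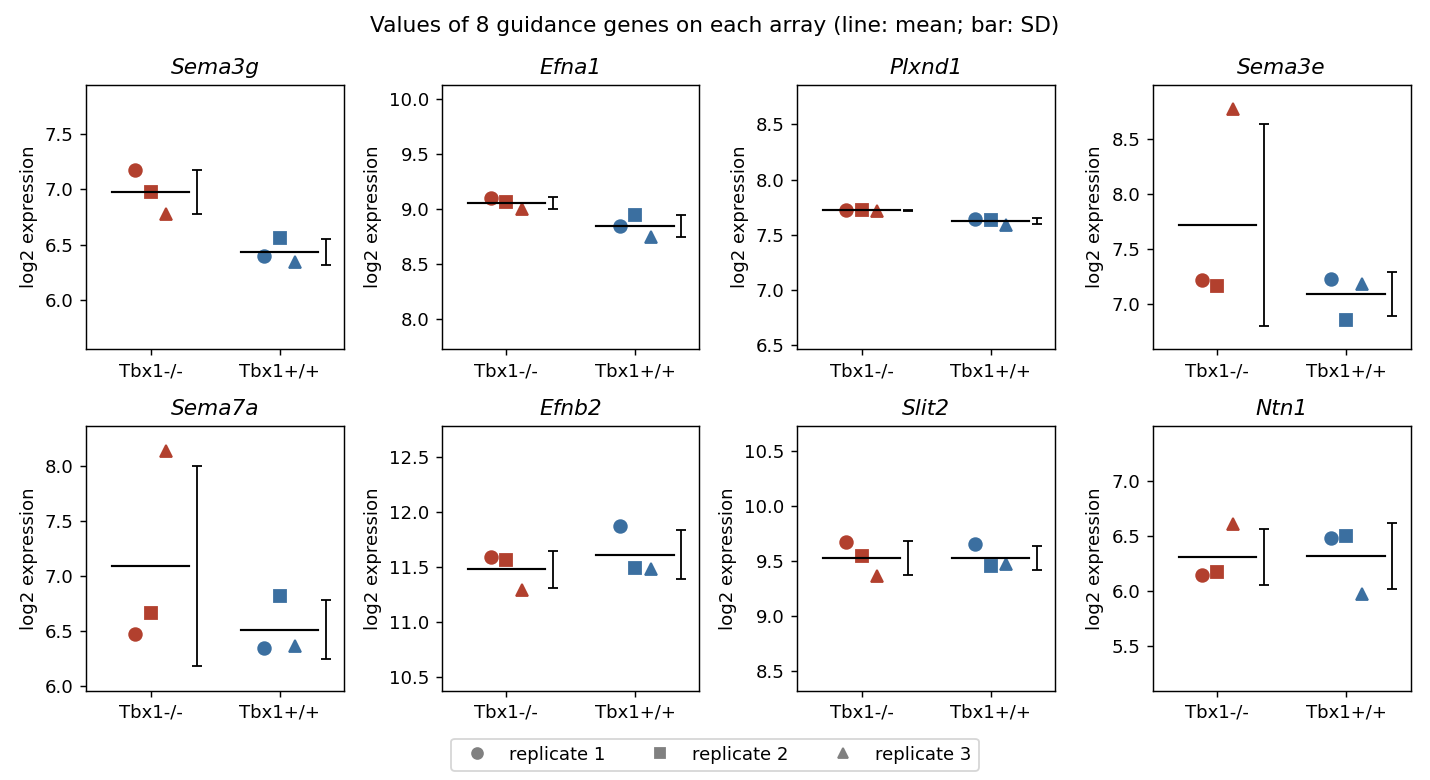
Log2 expression of 8 guidance genes on each of the 6 arrays, labelled-null (red) left of wild type (blue), with the mean as a line and the SD as a bar (n = 3 per genotype); every panel spans the same range. Sema3g, Efna1 and Plxnd1 do not overlap, Sema3e and Sema7a rest on labelled-null replicate 3, and Efnb2, Slit2 and Ntn1 overlap.

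The Slits had 2 higher and 1 lower mean of 3 and the Robos 1 higher and 3 lower of 4, where 47.3% of all genes were higher. In these families 0 stood at an unadjusted p under 0.05 in limma, against 2.68% of all genes. Slit1, a repellent better known from the forebrain, read 5.90, 5.77 and 5.83 on labelled-null arrays, against 6.01, 6.06 and 5.88 on wild-type arrays, a difference of -0.15 (SE 0.11, unadjusted p = 0.212 in limma). Only labelled-null replicate 1 reached into the wild-type range. On its dimmer probe set the labelled-null arrays were all lower, at 4.99, 4.99 and 5.27 against 5.41, 5.54 and 5.40, and the difference of -0.36 had an unadjusted p of 0.0193 and an adjusted p of 1.00 over all probe sets in limma. Slit3 read 7.46, 7.47 and 7.29, against 7.35, 7.30 and 7.17, and overlapped on labelled-null replicate 3 (0.14, SE 0.11, unadjusted p = 0.244 in limma). Slit2, the Slit most often tied to cranial axon and crest guidance, averaged 9.53 ± 0.15 on labelled-null and 9.53 ± 0.11 on wild-type arrays, with an interval for the difference of -0.24 to 0.25. Robo1, its main receptor, averaged 12.13 ± 0.15 and 12.15 ± 0.13 on the same groups, with an interval of -0.24 to 0.20. Robo2 read 4.41, 3.94 and 3.69, against 4.12, 3.97 and 4.37, and Robo3, a receptor of commissural axons, read 4.19, 4.18 and 4.14, against 4.21, 3.67 and 4.03. Both straddled the filter and overlapped, with differences of -0.14 (SE 0.20) and 0.20 (SE 0.15). Robo4, which is restricted to endothelium, differed by -0.07 (SE 0.15), while the endothelial list was higher.

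The netrins had 2 lower means of 2 and their receptors 3 higher and 2 lower of 5, where 47.3% of all genes were higher. Again 0 stood at an unadjusted p under 0.05 in limma, against 2.68% of all genes. Ntn1, the founding netrin, read 6.15, 6.17 and 6.60 on labelled-null arrays, against 6.48, 6.50 and 5.97 on wild-type arrays. Each genotype had an array apart from the others of its group, and the difference was -0.01 with an interval of -0.44 to 0.42. Ntn4, a laminin-like netrin of basement membranes, read 6.56, 6.65 and 6.65, against 6.32, 6.92 and 6.67, a difference of -0.02 with an interval of -0.38 to 0.34. The second probe sets of these genes differed by 0.32 and 0.23. Unc5c, a repulsive receptor, read 10.34, 10.20 and 10.21, against 9.88, 10.18 and 10.31 (0.12, SE 0.12). Unc5d read 4.60, 4.46 and 4.27, against 4.46, 4.71 and 4.45 (-0.10, SE 0.14), and both overlapped. Dcc, the attractive receptor, averaged 6.39 ± 0.13 on labelled-null and 6.40 ± 0.18 on wild-type arrays, Unc5b, which is also endothelial, 7.92 ± 0.11 and 7.88 ± 0.17, and Unc5a 4.98 ± 0.12 and 4.91 ± 0.07. Of the 15 neuron markers tested, 10 had higher and 5 lower means on the labelled-null arrays, where 47.3% of all genes were higher. Their median was 0.08. At an unadjusted p under 0.05 in limma stood 2 (13.3%, against 2.68% of all genes), and 0 passed the adjusted threshold. The 2 were Stmn2 at 0.90 (SE 0.17) and Pou4f1 at 0.34 (SE 0.11), while the neurofilament genes Ina and Nefl differed by -0.28 and -0.27. The list's part in the values of axonal receptors was not tested.

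Ligands and receptors that bind each other could be read side by side. Efnb2 and its receptor Ephb4 differed by -0.13 and -0.04, Sema3a and Nrp1 by -0.01 and 0.08, Sema3f and Nrp2 by -0.15 and 0.12, and Slit2 and Robo1 by 0.00 and -0.02. Sema3g and Nrp2 differed by 0.54 and 0.12, and Sema3e and Plxnd1 by 0.63 and 0.10, the Sema3e value resting on labelled-null replicate 3. In none of these pairs did the receptor have an unadjusted p under 0.05 in limma.

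Genes with several probe sets gave a further reading of each difference. Of the 66 genes, 42 had 2 or more probe sets above the filter, and for 21 of these the probe sets gave differences of the same sign and for 21 of mixed sign. For 34 of the 42 the largest and smallest difference lay within 0.25 of each other. The spread was widest for Sema7a (0.52), Sema3e (0.42) and Efnb2 (0.41).

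Wild-type replicate 2 was the highest of the 6 arrays for 21 of 64 guidance genes (32.8%), against 25.2% of all genes, and labelled-null replicate 1 for 19 (29.7%), against 17.7%. Wild-type replicate 3 was highest for 3 (4.69%), against 12.4%. The mean level of the guidance genes lay between 7.88 and 7.93 on labelled-null and between 7.81 and 7.92 on wild-type arrays, which overlap.

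Co-receptors and cytoplasmic mediators of the same pathways were read in the same way. Of 60 genes listed 56 were tested, 0 passed the adjusted threshold in limma, and 1 stood at an unadjusted p under 0.05 (1.79%, against 2.68% of all genes). With the replicate block it was 3 (5.36%), against 4.24% of all genes. That gene was Rgmb, a BMP co-receptor of the repulsive guidance family, which read 8.45, 8.44 and 8.28 on labelled-null arrays, against 8.70, 9.07 and 8.59 on wild-type arrays. All labelled-null arrays were lower, and the difference was -0.40 (SE 0.14, unadjusted p = 0.0186 and adjusted p = 1.00 in limma). Of the 6 probe sets of Rgmb, only the brightest is described here. Without wild-type replicate 2, the highest array, 0 of the list stood at an unadjusted p under 0.05 in limma, and without labelled-null replicate 3 Rgmb was no longer among them. Next by p were Vegfa, the endothelial growth factor that binds Nrp1 and is also in the hypoxia list, at 0.55 (SE 0.28), and Nrcam, an adhesion partner of Nrp2, at 0.28 (SE 0.15). Both joined Rgmb under 0.05 with the block, and both had overlapping groups. Vegfa read 9.16, 8.41 and 7.88 on labelled-null arrays, against 8.07, 7.82 and 7.90 on wild-type arrays. Its value on labelled-null replicate 3 lay within the wild-type range, and labelled-null replicate 1 was the highest. The list had 20 higher and 36 lower means, where 47.3% of all genes were higher, and its median was -0.03. On 4 genes the groups did not overlap (7.14%, against 6.43% of all genes). All 4 were lower, as were 3.25% of all genes: Rgmb, Rgma, Srgap1 and Ablim3.

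**Figure D5:**
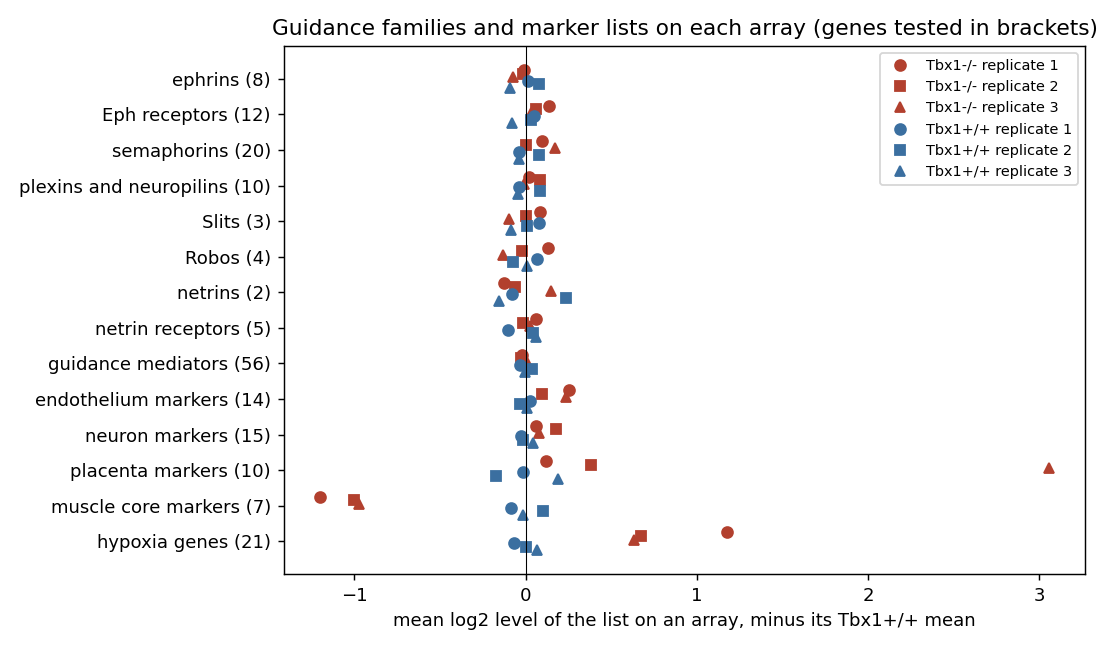
Mean log2 level of the guidance families, the mediators and 5 of the marker lists on each array, minus its wild-type mean (horizontal axis), with the number of genes tested in brackets. The 8 guidance families and the mediators stay within 0.3 of 0 on every array, while the mean level is lower for the muscle core list, which includes Tbx1, and higher for the hypoxia list on the labelled-null arrays, and placenta markers are high on labelled-null replicate 3.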

How the data were processed

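The deposited table holds 1 log2 expression value per probe set for each of 6 arrays, made by the authors with GCRMA per the submitters' processing notes; for its version, no label or header says. GCRMA corrects background by probe sequence and normalizes between arrays, so a shift of most genes would be removed and differences near background are compressed. The log2 scale was read from the values (1.95 to 15.11). Per the labels' protocols, the starting material was 100 ng of total RNA. Of 45101 probe sets, 34958 had 1 symbol, 932 several and 9211 none; 66 of the 66 guidance genes matched the reference gene table by gene ID. Genes above 4 on at least 3 arrays were tested (16074 of 18194).

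The genotypes were compared in R 4.3.3 by limma 3.58.1 (lmFit, eBayes with an intensity trend), with Benjamini-Hochberg adjustment over all genes and a threshold of 0.05; the step was tested on simulated data. No fit dropped or imputed an array unless stated. After each genotype was centred on its own mean, same-numbered arrays correlated at 0.261, 0.130 and 0.135, against -0.195 to 0.065 otherwise. That centring ties the correlations to each other, so they do not establish a pairing, and the labels give only a replicate number. The main fit left the replicate number out, and values with it as a block stand beside the counts that they change. No pair of arrays was identical (SD of the difference within a genotype 0.247 to 0.411). Array number limits the precision. The guidance genes, lists and tests were chosen with earlier results of these data known. Per-array values are given for guidance genes and mediators at an unadjusted p under 0.05. They are also given for guidance genes with non-overlapping groups and a difference of at least 0.3, and the 2 smallest p of each family. Plxnd1, Sema3e, Sema7a, Efnb2, Vegfa, the marker Esam and second probe sets were added after their values were seen. Other marker genes under 0.05 are given by their difference only. Alternatives changed the filter, floor, probe set, variance model, normalization and block, or left out an array.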

Additional observations from a re-analysis of the deposited data

How the results depend on the processing

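No guidance gene passed the adjusted threshold in limma under any of the 16 alternatives tried (1 to 3 at an unadjusted p under 0.05), and Sema3g was among those at an unadjusted p under 0.05 in all 16. That count was 1 of 64 as reported (against 2.68% of all genes), 3 of 63 after averaging the probe sets of each gene (against 3.03%), 3 of 137 with every probe set on its own (against 2.45%), 2 of 64 without the intensity trend (against 3.15%), 3 of 64 with array weights (against 4.48%) and 2 of 64 with the replicate block (against 4.24%). With an array left out it ran from 1 to 3 of 64, against 2.25% to 3.83%. The 3 of 64 stood without wild-type replicate 2, where the share of all genes was the lowest, 2.25%. Genes with groups that did not overlap numbered 3 as reported, 7 of 137 with every probe set on its own (against 6.16% of all probe sets), and 5 to 12 of 64 with an array left out, where 13.7% to 17.0% of all genes do not overlap. The 12 stood without wild-type replicate 2, against 13.7% of all genes, and the 5 without labelled-null replicate 1, against 14.5%. The median difference ran from -0.00 to 0.05 with an array left out. Genes past the threshold over the whole array numbered 6 as reported, 2 each with no filter, with a floor of 4, without the trend or with every probe set on its own, 0 with mean probe sets (3.03% of genes at an unadjusted p under 0.05), 10 with the replicate block, and 0 to 22 with an array left out: 22 without labelled-null replicate 3, 1 without wild-type replicate 1 or 2, and 0 without wild-type replicate 3 (3.14% at an unadjusted p under 0.05). Mediators at an unadjusted p under 0.05 numbered 1 of 56 as reported, 2 of 56 with mean probe sets or array weights, 5 of 139 probe sets on their own, 3 of 56 with the replicate block and 0 to 2 of 56 with an array left out, against the same shares of all genes. Of the 64 guidance genes, 43 changed sign under at least 1 alternative, 5 of them with a difference of at least 0.1. The cause of these changes was not tested. Values near 4, as for Robo2, Robo3, Epha8 and Unc5d, are a weak basis for a difference.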
